A study of Mus musculus with 36 samples.

Results

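The genes described here are 8 mouse genes of Polycomb repression and its DNA-binding partner: Ezh1, Ezh2, Eed and Suz12 of Polycomb repressive complex 2, Rnf2, Ring1 and Bmi1 of Polycomb repressive complex 1, and Yy1. They were chosen by gene symbol, and each symbol matched 1 of the 26400 rows of the count table. All 8 passed the filter on low counts in the cytoplasmic, the nuclear and the joint analysis. RNA was measured by stranded total RNA sequencing, after depletion of ribosomal RNA, in 36 libraries that form 12 groups of 3. The groups combine C166 or C1.1 cells, the cytoplasmic or the nuclear fraction, and normoxia, 2h or 24h of low-oxygen culture (hypoxia). C166 is a mouse cell line established from yolk sac and labelled endothelial. C1.1 is 1 clone derived from it with CRISPR-Cas9, in which a single miR-466c hairpin in an intron of Sfmbt2 was removed while the other miR-466c hairpins of that cluster remained. All groups were grown in the same serum-containing medium. Differences between the lines are therefore differences between 1 clone and its parental population, and C1.1 has no second clone to set beside it.

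Polycomb complexes keep developmental genes silent through marks on histones. Complex 2 methylates lysine 27 of histone H3: Ezh1 and Ezh2 are alternative catalytic subunits, Suz12 is the scaffold that holds the core together, and Eed binds the methylated lysine and stimulates the enzyme. Complex 1 ubiquitylates histone H2A: Rnf2 (also called Ring1b) and Ring1 are alternative E3 ligases, and Bmi1 is a partner that shapes their activity. Yy1 is a zinc-finger protein that binds DNA, is a subunit of the INO80 chromatin remodeller, and is related to the fly protein Pho, which recruits Polycomb complexes in Drosophila. In many cell types Ezh2 is abundant in dividing cells and is a target of E2F transcription factors, whereas Ezh1 persists in cells that divide little.

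All 8 members matched a promoter in the RefSeq-derived table (build GRCm38.p6), each window running from 250 bases before to 50 bases after the annotated start. The windows of 4 members are printed 5′ to 3′ on the gene's own strand. Ezh1 (minus strand, chr11:101226414-101226713) and Ezh2 (minus strand, chr6:47594981-47595280) are shown because their RNA moved in opposite directions after 24h of hypoxia. Bmi1 (plus strand, chr2:18676768-18677067) and Yy1 (plus strand, chr12:108793047-108793346) are shown because both were lower in C1.1 in both fractions. Capitals mark an E2F motif (TTTGGCGC), the core of the hypoxia response element (ACGTG), an E-box (CACGTG, which holds ACGTG on both strands) and a YY1 motif (GCCATNTT), each searched on both strands.
Ezh1: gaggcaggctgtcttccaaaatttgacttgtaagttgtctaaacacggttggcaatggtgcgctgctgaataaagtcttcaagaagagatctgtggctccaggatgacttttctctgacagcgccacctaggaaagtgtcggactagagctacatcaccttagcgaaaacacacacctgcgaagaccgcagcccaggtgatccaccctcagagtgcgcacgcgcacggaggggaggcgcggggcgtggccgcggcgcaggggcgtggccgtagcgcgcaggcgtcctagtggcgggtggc
Ezh2: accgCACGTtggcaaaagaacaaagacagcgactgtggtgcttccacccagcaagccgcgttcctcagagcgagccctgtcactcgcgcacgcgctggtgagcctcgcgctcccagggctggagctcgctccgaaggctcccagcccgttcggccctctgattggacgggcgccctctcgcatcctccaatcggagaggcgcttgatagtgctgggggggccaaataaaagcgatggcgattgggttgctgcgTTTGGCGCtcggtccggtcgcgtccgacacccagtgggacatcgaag
Bmi1: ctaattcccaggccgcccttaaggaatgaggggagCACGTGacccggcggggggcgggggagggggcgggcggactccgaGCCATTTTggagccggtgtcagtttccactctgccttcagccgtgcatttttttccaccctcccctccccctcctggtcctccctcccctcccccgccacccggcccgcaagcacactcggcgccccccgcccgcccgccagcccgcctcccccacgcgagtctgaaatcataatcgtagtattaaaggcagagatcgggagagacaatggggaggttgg
Yy1: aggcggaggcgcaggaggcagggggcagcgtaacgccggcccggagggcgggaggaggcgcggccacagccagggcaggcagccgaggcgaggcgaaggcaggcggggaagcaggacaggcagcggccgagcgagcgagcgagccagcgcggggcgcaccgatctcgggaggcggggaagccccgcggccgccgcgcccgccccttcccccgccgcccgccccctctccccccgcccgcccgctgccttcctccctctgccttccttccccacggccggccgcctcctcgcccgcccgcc

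The Ezh2 window holds TTTGGCGC, whose first base lies 4 bases past the start, and the hypoxia core on the opposite strand at -246. It also holds the CCAAT box (searched as CCAAT on both strands, not capitalised) at -90, -64 and -11. The Bmi1 window holds the E-box at -215, which accounts for both of its hypoxia cores, and the YY1 motif GCCATTTT at -170. The Ezh1, Yy1, Rnf2 and Ring1 windows hold none of the 5 motifs, and those of Eed and Suz12 hold 1 CCAAT box each. Of 32851 promoters, 0.514% hold TTTGGCGC, 19.6% ACGTG, 7.15% CACGTG, 6.05% GCCATNTT and 37.4% CCAAT. A match describes the letters in the window and is not evidence of binding. By the GENCODE bounds given next, the Ezh2 and Yy1 windows lie wholly inside their genes, downstream of the outermost start. Their matches and positions therefore hold only for the start used here.

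By the GENCODE M21 annotation of GRCm38, Ezh2 (chromosome 6, 47530139 to 47595341), Eed (chromosome 7, 89954654 to 89980983), Suz12 (chromosome 11, 79993106 to 80034123) and Rnf2 (chromosome 1, 151458004 to 151500955) overlap other annotated genes. For Rnf2 these are the protein-coding gene Trmt1l on the opposite strand and Gm36527, of unconfirmed type, on the same strand. For Eed they are Gm45120, also unconfirmed, on the same strand and a non-coding gene on the opposite strand. For Ezh2 and Suz12 they are non-coding genes or pseudogenes on the opposite strand. The strand setting of the counting is not given in the sources used here, so reads of an overlapping partner cannot be told apart for these 4 members. For the partners on the same strand, no strand setting would separate the reads. Ezh1 (chromosome 11, 101191115 to 101226463), Yy1 (chromosome 12, 108792973 to 108820148), Ring1 (chromosome 17, 34020792 to 34024680) and Bmi1 (chromosome 2, 18677018 to 18686629) had no overlapping gene. All counts are of whole genes, exons and untranslated regions together. Whether reads from introns were also counted is not given in the sources used here, and values per kilobase use the exonic length.

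Total counts ran from 20745543 to 28667821 in the cytoplasmic and from 15314724 to 24940907 in the nuclear libraries. Replicate 1 of normoxic C166 cytoplasm stood apart, with a count for 11903 genes where the next fewest among cytoplasmic libraries was 14879. The 8 endothelial markers in the table summed to 1.9 to 15.1 CPM (counts scaled to the size of each library) in any library. Cdh5 and Tie1 had 2 counts and 1 count over all 36 libraries, Pecam1 never exceeded 0.37 CPM, and the largest value was that of Flt1 in C166 nuclei at 24h (up to 12 CPM). The 7 smooth muscle and mesenchyme markers summed to 533 to 5780 CPM, so the labelled endothelial identity was not reflected in these markers. Their sum was 4214 to 5780 CPM in normoxic C166 cytoplasm, 1102 to 1260 CPM there at 24h and 1303 to 1503 CPM in normoxic C1.1 cytoplasm, and its part in the results was not tested. Nothing in the labels says that replicates were separate cultures, and a p-value therefore reflects only how far these libraries scatter, which may be technical.

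Levels are given as CPM after TMM scaling of each fraction, and as CPM per kilobase of exon where genes are compared. In normoxic C166 cytoplasm Bmi1 was the most abundant member per length (90.3 ± 17.2 CPM per kilobase, SD, n = 3), followed by Suz12 (54.2 ± 8.85). Rnf2 (25.3 ± 2.03) and Yy1 (23.7 ± 0.710) overlapped, and Ezh2 (18 ± 0.145) and Eed (15.8 ± 0.873) came next. The paralogues Ring1 (2.37 ± 0.202) and Ezh1 (1.44 ± 0.117) were lowest, so that each complex had 1 abundant and 1 scarce enzyme. In the nucleus Suz12 led in both lines (33.1 ± 4.62 CPM per kilobase in C166 and 32 ± 3.21 in C1.1). Bmi1 was second in C166 nuclei (25.1 ± 1.49) and lower in the order in C1.1 nuclei (18.7 ± 0.918), where Ezh2 was above it (21.7 ± 1.33). Ring1 and Ezh1 were the lowest of the 8 in both lines and both fractions.

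**Figure D1:**
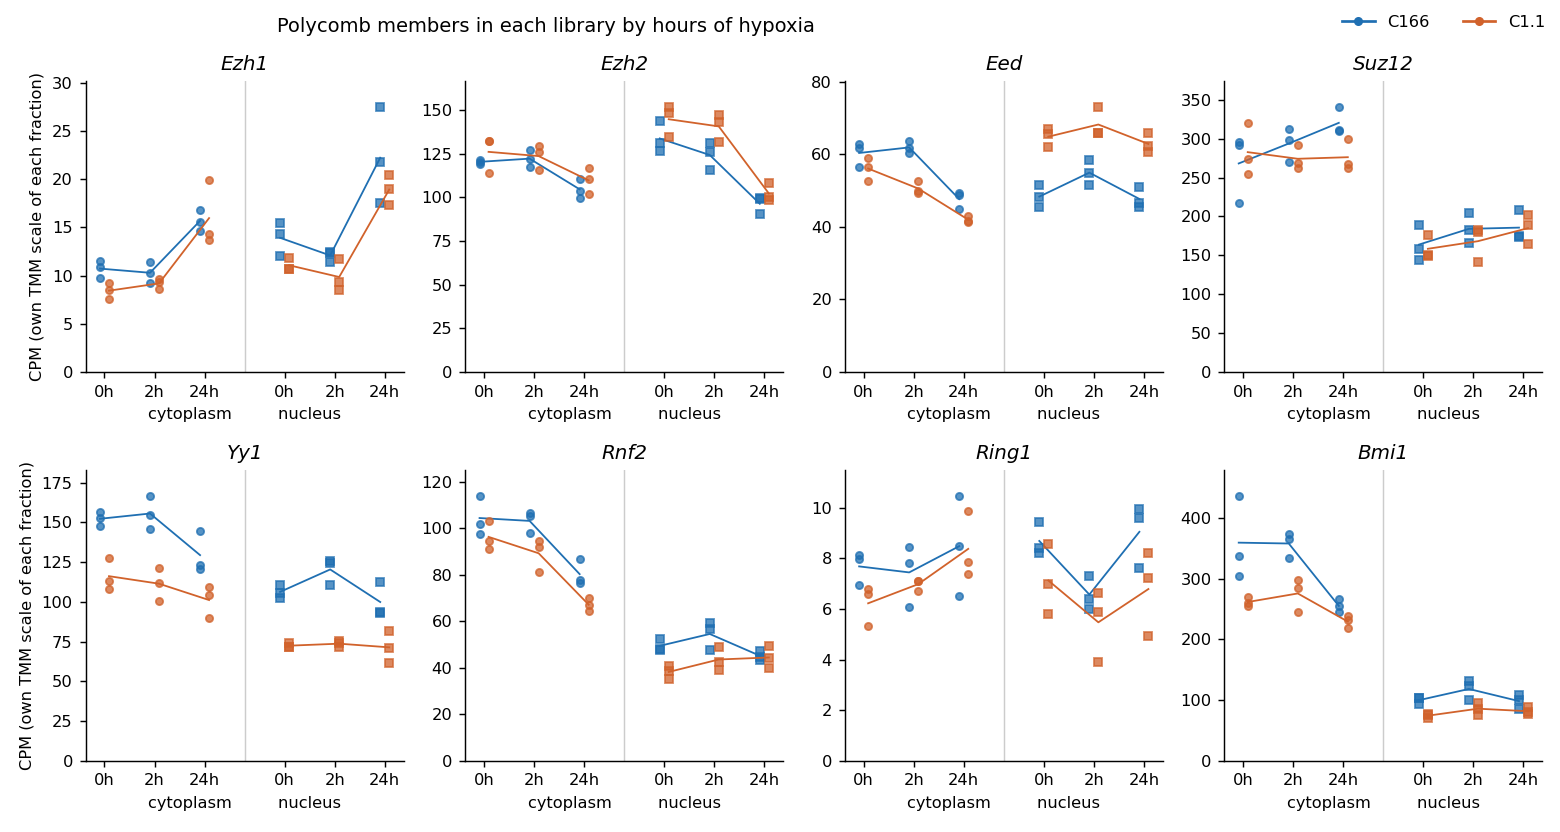
Level of each member (CPM on the TMM scale of its own fraction, vertical axis) in each of the 36 libraries by hours of hypoxia (horizontal axis), with cytoplasm as circles and nucleus as squares, C166 in blue and C1.1 in orange, and lines through the means of 3 libraries. Ezh1 is highest at 24h in all 4 line and fraction combinations, Bmi1 and Rnf2 sit lower in the nucleus than in the cytoplasm throughout, and the lines separate for Yy1 and for nuclear Eed.

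The first question was how the members responded to 24h of hypoxia in each line and fraction. Ezh1 rose in all 4 combinations, and Ezh2 fell in the nucleus of both lines. Eed and Rnf2 fell in the cytoplasm of both lines, and Bmi1 fell in the cytoplasm of C166. In C166 cytoplasm 1 of 8 members was called higher, where 18.2% of all tested genes were, and 3 lower, against 17.5%. In C166 nuclei the counts were 1 higher (19.2% of all genes) and 1 lower (18.4%). In C1.1 cytoplasm they were 1 higher (18%) and 2 lower (18.1%), and in C1.1 nuclei 1 higher (22.3%) and 1 lower (20.5%). These counts of 8 were set beside those shares as a description only, and the members are described one by one. A gene was called at a Benjamini-Hochberg adjusted p under 0.05 in edgeR's quasi-likelihood test over all tested genes. The 2h and 24h comparisons share their normoxic libraries.

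Ezh1, the scarcer methyltransferase of complex 2, was at 9.77, 10.9 and 11.5 CPM in the 3 normoxic libraries of C166 cytoplasm and at 16.8, 15.5 and 14.7 CPM at 24h. The groups did not overlap, and the log2 fold change was 0.55 ± 0.18, adjusted p = 0.0203, a 1.46-fold rise. In C1.1 cytoplasm it went from 8.47, 7.62 and 9.22 to 14.3, 19.9 and 13.7 CPM (0.92 ± 0.18, adjusted p = 0.000343). Replicate 2 at 24h was the highest there, and the other 24h libraries still exceeded every normoxic one. In C166 nuclei the values were 14.3, 15.4 and 12.1 CPM in normoxia and 27.4, 17.5 and 21.7 at 24h, with the largest spread among the 24h groups (0.67 ± 0.16, adjusted p = 0.0015). In C1.1 nuclei they were 10.6, 10.7 and 11.9 and 20.4, 17.3 and 19 CPM (0.77 ± 0.16, adjusted p = 0.000369). After 24h every hypoxic library was above every normoxic library in all 4 combinations. The call in C166 cytoplasm was the least firm: the adjusted p was 0.0718 without replicate 1 and 0.0567 without replicate 2 of the 24h group, and 0.105 with no filter on low counts. It was 0.0729 when only the libraries compared were fitted.

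Ezh2, the more abundant methyltransferase, moved the other way. In C166 nuclei it was at 144, 131 and 126 CPM in normoxia and at 99.1, 99.4 and 90.5 CPM at 24h (-0.47 ± 0.08, adjusted p = 7.47e-05, 1.39-fold lower). In C1.1 nuclei it was at 151, 148 and 135 CPM in normoxia and 98.3, 100 and 108 CPM at 24h (-0.50 ± 0.08, adjusted p = 2.78e-05, 1.42-fold lower). The nuclear groups were separated in both lines, with the highest hypoxic library below the lowest normoxic one. In the cytoplasm the difference was smaller and did not pass the threshold: 121, 119 and 120 against 99.7, 110 and 104 CPM in C166 (-0.20 ± 0.08, adjusted p = 0.0678), and 132, 114 and 132 against 110, 102 and 117 CPM in C1.1 (-0.20 ± 0.08, adjusted p = 0.0693). In C166 the cytoplasmic groups did not overlap, whereas in C1.1 normoxic replicate 2 lay within the range of the hypoxic libraries. Without single libraries the cytoplasmic value passed (-0.26, adjusted p = 0.0451, without C166 24h replicate 2; -0.27, adjusted p = 0.0259, without C1.1 normoxic replicate 2; -0.25, adjusted p = 0.0489, without C1.1 24h replicate 3).

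**Figure D2:**
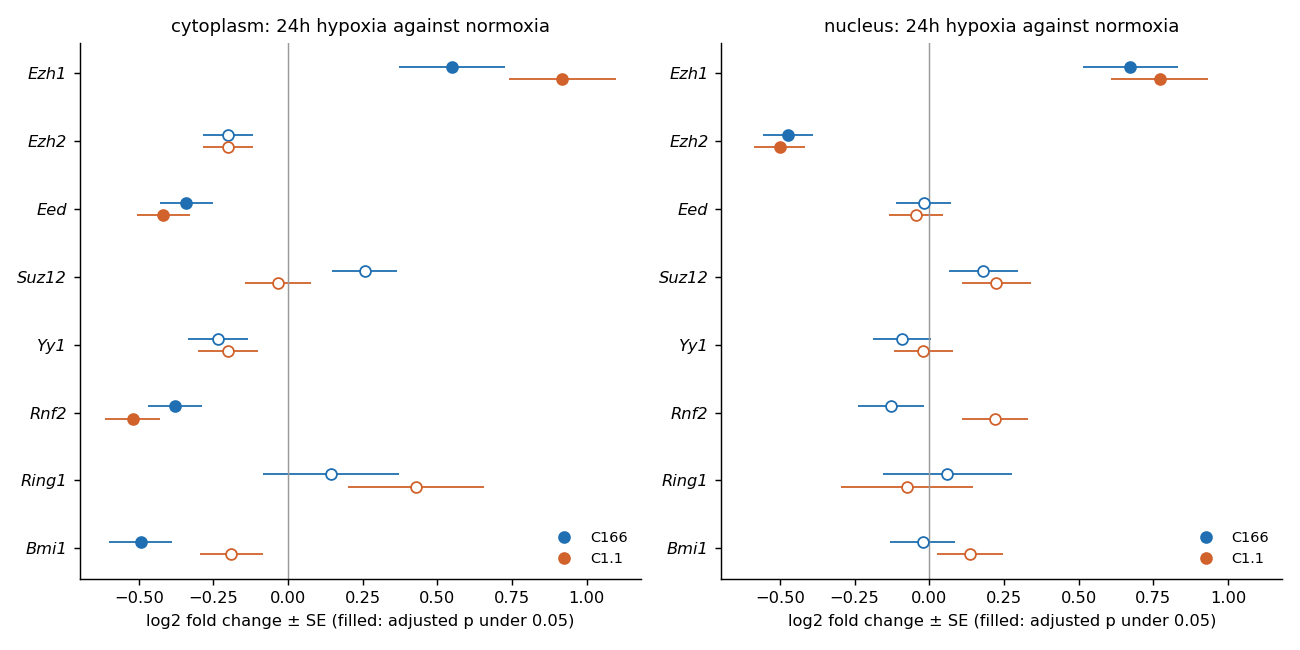
Log2 fold change of each member at 24h of hypoxia against normoxia (horizontal axis, points ± SE, 3 libraries against 3), for cytoplasm (left) and nucleus (right), C166 in blue and C1.1 in orange, filled where the adjusted p was under 0.05. Ezh1 is to the right of 0 in both panels and both lines, Ezh2 is called only in the nuclear panel, and Eed, Rnf2 and, in C166, Bmi1 are called only in the cytoplasmic panel.

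The balance of the 2 methyltransferases was also read within each library, as Ezh1 counts in percent of Ezh2 counts, a quantity that no scaling between libraries can change and that was chosen after values were seen. In C166 cytoplasm the ratio was 8.06 to 9.54% in normoxia and 14.1 to 16.9% at 24h, a 1.69-fold difference of the means. In C1.1 cytoplasm it was 6.42 to 6.97% and 11.7 to 19.5% (2.2-fold). In C166 nuclei it was 9.55 to 11.8% and 17.6 to 27.7% (2.22-fold), and in C1.1 nuclei 7.02 to 8.81% and 17.3 to 20.8% (2.41-fold). In all 4 combinations the lowest 24h library was above the highest normoxic one, while at 2h the means were 7.07 to 9.76%. These are ratios of counts per gene, and Ezh1 has the longer exonic length (7.44 kb against 6.68 kb), so per length the ratio is lower: 8.0% in normoxic and 13.5% in 24h C166 cytoplasm. Ezh2 remained the major transcript throughout.

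**Figure D3:**
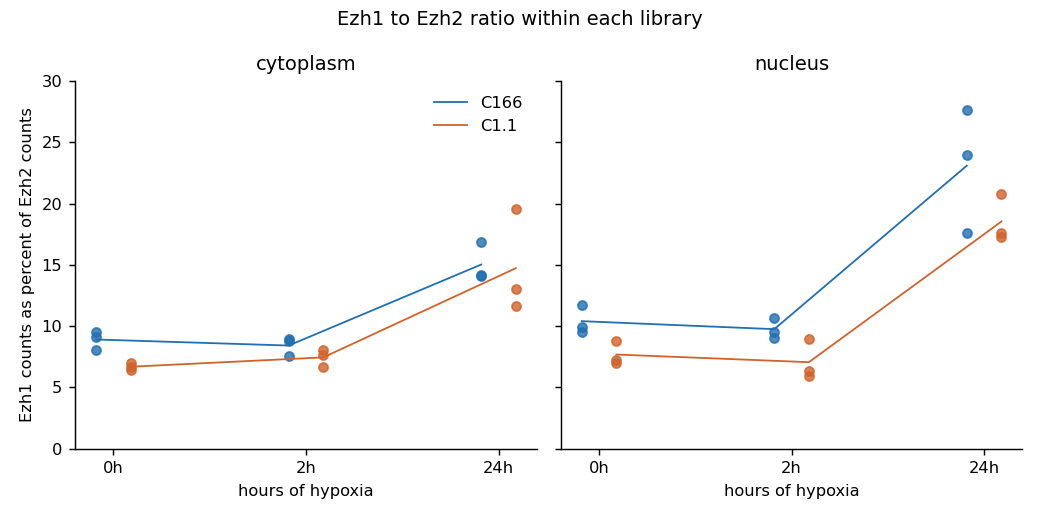
Ezh1 counts as a percent of Ezh2 counts (vertical axis) in each library by hours of hypoxia (horizontal axis), in cytoplasm (left) and nucleus (right), C166 in blue and C1.1 in orange, with lines through the means of 3 libraries. The 24h libraries, at 11.7 to 27.7%, lie above the normoxic libraries of the same line and fraction, at 6.42 to 11.8%, and the 2h libraries sit with the normoxic ones.

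Of the non-catalytic core of complex 2, Eed, the subunit that reads methylated lysine 27, fell in the cytoplasm of both lines. It went from 61.7, 62.8 and 56.5 to 48.6, 49.2 and 45 CPM in C166 (-0.34 ± 0.09, adjusted p = 0.00477) and from 56.5, 52.6 and 59 to 43.1, 41.5 and 41.3 CPM in C1.1 (-0.42 ± 0.09, adjusted p = 0.000797). Neither pair of groups overlapped. The C166 call was lost (adjusted p = 0.0682) when only its own 6 libraries were fitted. In the nucleus the fold changes were -0.02 ± 0.09 in C166 and -0.05 ± 0.09 in C1.1, with 95% intervals of -0.20 to 0.16 and -0.22 to 0.13. Suz12, the scaffold, passed the threshold in none of the 4 comparisons. Its cytoplasmic fold change in C166 (0.26 ± 0.11, adjusted p = 0.0744) rested on normoxic replicate 1, the library that stood apart, at 218 CPM beside 292 and 295 CPM. Without that library it was 0.12 (adjusted p = 0.367), whereas RLE, upper-quartile factors and DESeq2 put it past the threshold at 0.27 to 0.29. In C1.1 cytoplasm the Suz12 value was -0.03 ± 0.11. In nuclei it was 0.18 ± 0.12 in C166 (adjusted p = 0.234) and 0.22 ± 0.12 in C1.1 (adjusted p = 0.124), and the latter passed with no filter on low counts (0.25, adjusted p = 0.0376).

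In complex 1 the abundant ligase Rnf2 fell in the cytoplasm. C166 had 97.7, 114 and 102 CPM in normoxia and 77.6, 76.6 and 86.8 CPM at 24h (-0.38 ± 0.09, adjusted p = 0.00272, 1.30-fold lower). C1.1 had 103, 94.7 and 90.9 CPM in normoxia and 70.2, 64.3 and 67 CPM at 24h (-0.52 ± 0.09, adjusted p = 0.000125, 1.43-fold lower). All 6 hypoxic cytoplasmic libraries were below all 6 normoxic ones. In nuclei the values were -0.13 ± 0.11 in C166 and 0.22 ± 0.11 in C1.1, neither called. Ring1, the scarcer ligase, was at 3.90 to 10.5 CPM in all libraries and was called nowhere. Its 95% intervals at 24h were -0.30 to 0.59 in C166 cytoplasm and -0.02 to 0.88 in C1.1 cytoplasm, which lie above the fitted falls of Rnf2 in the same fraction (-0.38 and -0.52). Ring1 counts in percent of Rnf2 counts averaged 7.42% in normoxia and 10.5% at 24h in C166 cytoplasm, and 6.52% and 12.5% in C1.1 cytoplasm, without overlap, while the nuclear ranges overlapped.

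Bmi1, the partner of the ligases and the most abundant member per length in normoxic cytoplasm, fell in C166 cytoplasm from 435, 338 and 304 to 255, 245 and 265 CPM (-0.49 ± 0.11, adjusted p = 0.000981, 1.41-fold lower). Normoxic replicate 1, the library that stood apart, was the highest. Without it the fold change was -0.33 (adjusted p = 0.00594). In C1.1 cytoplasm, where normoxia was already at 269, 260 and 254 CPM, the 24h libraries were at 231, 238 and 218 CPM (-0.19 ± 0.11, adjusted p = 0.176), and a fit of those 6 libraries alone called it (-0.22, adjusted p = 0.0498). The difference of the 2 responses, C1.1 minus C166, was 0.30 ± 0.15 (95% interval 0.01 to 0.60, adjusted p = 0.325), and 0.14 without that library. In nuclei Bmi1 was at 103, 103 and 92.9 and 108, 100 and 85.9 CPM in C166, with a fold change of -0.02 ± 0.11, and the C1.1 value was 0.14 ± 0.11.

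Yy1 was called in none of the 24h comparisons. In C166 cytoplasm it was at 148, 157 and 153 CPM in normoxia and 120, 144 and 123 CPM at 24h (-0.23 ± 0.10, adjusted p = 0.0753). The groups did not overlap, and without 24h replicate 2 the value was -0.34 (adjusted p = 0.0248). The other values were -0.20 ± 0.10 in C1.1 cytoplasm, -0.09 ± 0.10 in C166 nuclei and -0.02 ± 0.10 in C1.1 nuclei.

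After 2h of hypoxia no member was called in any line or fraction. The shares of all tested genes called at 2h were 1.34% in C166 cytoplasm, 2.3% in C166 nuclei, 1.95% in C1.1 cytoplasm and 3.29% in C1.1 nuclei, so few calls were made at that time in general. The largest member values were in nuclei: -0.40 ± 0.22 for Ring1 in C166, -0.39 ± 0.22 for Ring1 in C1.1, and 0.24 ± 0.11 for Bmi1 in C166. For Ezh1 the 95% intervals at 2h ran from -0.52 to 0.12 in C166 nuclei and from -0.50 to 0.16 in C1.1 nuclei, below the fitted 24h values of 0.67 and 0.77. The unadjusted p was under 0.05 for 1 of the 32 member tests at 2h, and DESeq2 called none of them.

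The next comparison asked whether the clone without the miR-466c hairpin differed from its parent in normoxia. Yy1 and Bmi1 were lower in C1.1 in both fractions. In the nucleus Rnf2 was also lower, and Eed was higher. In the cytoplasm no member was called higher (18.2% of all genes) and 2 were called lower (17.3%). In the nucleus 1 was called higher (18.8%) and 3 lower (21.2%). The lines also differed in hypoxia control genes before any hypoxia. Ndrg1 (1.34 in cytoplasm and 0.80 in nuclei) and Bnip3 (0.84 and 0.74) were called higher in normoxic C1.1. So were Vegfa (0.55 and 0.41) and Slc2a1 (0.51 and 0.42), whereas Pdk1 was not called (0.02 and 0.30). The part of this difference in the members' results was not tested. Sfmbt2, the host gene of the deleted hairpin and a Polycomb group protein itself, was at 15.5, 20.5 and 18.4 CPM in C166 and 19.4, 21.7 and 24.7 CPM in C1.1 cytoplasm. The deleted segment is intronic, and whether intronic reads were counted is not given in the sources used here. The Sfmbt2 counts therefore do not test the deletion.

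Yy1 had the clearest separation between the lines. Normoxic nuclei were at 111, 103 and 105 CPM in C166 and 74.2, 71.8 and 71.3 CPM in C1.1 (-0.55 ± 0.10, adjusted p = 5.45e-05, 1.47-fold lower). Normoxic cytoplasm was at 148, 157 and 153 CPM in C166 and 127, 108 and 113 CPM in C1.1 (-0.39 ± 0.10, adjusted p = 0.00475). At 2h and 24h the nuclear libraries of C1.1 again lay below those of C166 (74.3, 71.7 and 75.1 against 126, 111 and 125 CPM at 2h, and 61.6, 71.1 and 81.5 against 113, 93.9 and 93.2 CPM at 24h), values for which no test was made. Bmi1 was at 269, 260 and 254 CPM in C1.1 cytoplasm against 435, 338 and 304 CPM in C166 (-0.46 ± 0.11, adjusted p = 0.00192). This uses the same normoxic C166 libraries as the 24h comparison, and without replicate 1 the value was -0.29 (adjusted p = 0.0144). In nuclei Bmi1 was at 70.1, 76.9 and 75.7 CPM against 103, 103 and 92.9 CPM (-0.43 ± 0.11, adjusted p = 0.0027), again without overlap.

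Eed was called higher in C1.1 in the nucleus: 62.1, 65.5 and 66.9 CPM against 51.4, 45.4 and 48.1 CPM in C166 (0.42 ± 0.09, adjusted p = 0.000504). In the cytoplasm it was at 56.5, 52.6 and 59 CPM in C1.1, with a fold change of -0.11 ± 0.09 that was not called. Rnf2 was at 38.8, 40.8 and 35.1 CPM in C1.1 nuclei against 52.3, 47.8 and 48.2 CPM in C166 (-0.37 ± 0.11, adjusted p = 0.00868), a call lost without C1.1 nuclear replicate 3 (adjusted p = 0.0619) and with upper-quartile factors (0.0502). The difference between the lines was -0.35 ± 0.18 in cytoplasm and -0.33 ± 0.16 in nuclei for Ezh1, and 0.07 ± 0.08 and 0.11 ± 0.08 for Ezh2, none called. With upper-quartile factors Ezh2 was called higher in C1.1 nuclei (0.22, adjusted p = 0.0415). Suz12 values were 0.08 ± 0.11 and -0.05 ± 0.12, and those of Ring1 -0.30 ± 0.23 and -0.28 ± 0.22.

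The 24h responses of the 2 lines were compared directly, as C1.1 minus C166. No member was called in the cytoplasm (2.33% of all genes in either direction) or in the nucleus (4.75%). At an unadjusted p under 0.05 there were 0 cytoplasmic and 1 nuclear member tests, and DESeq2 called no member either. The interval was narrow for Ezh2 (95% interval -0.23 to 0.23 in cytoplasm and -0.26 to 0.21 in nuclei) and wide for Ezh1 (-0.12 to 0.86 and -0.35 to 0.54). The largest differences were 0.37 ± 0.25 for Ezh1 in cytoplasm and 0.35 ± 0.16 for Rnf2 in nuclei (adjusted p = 0.221).

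**Figure D4:**
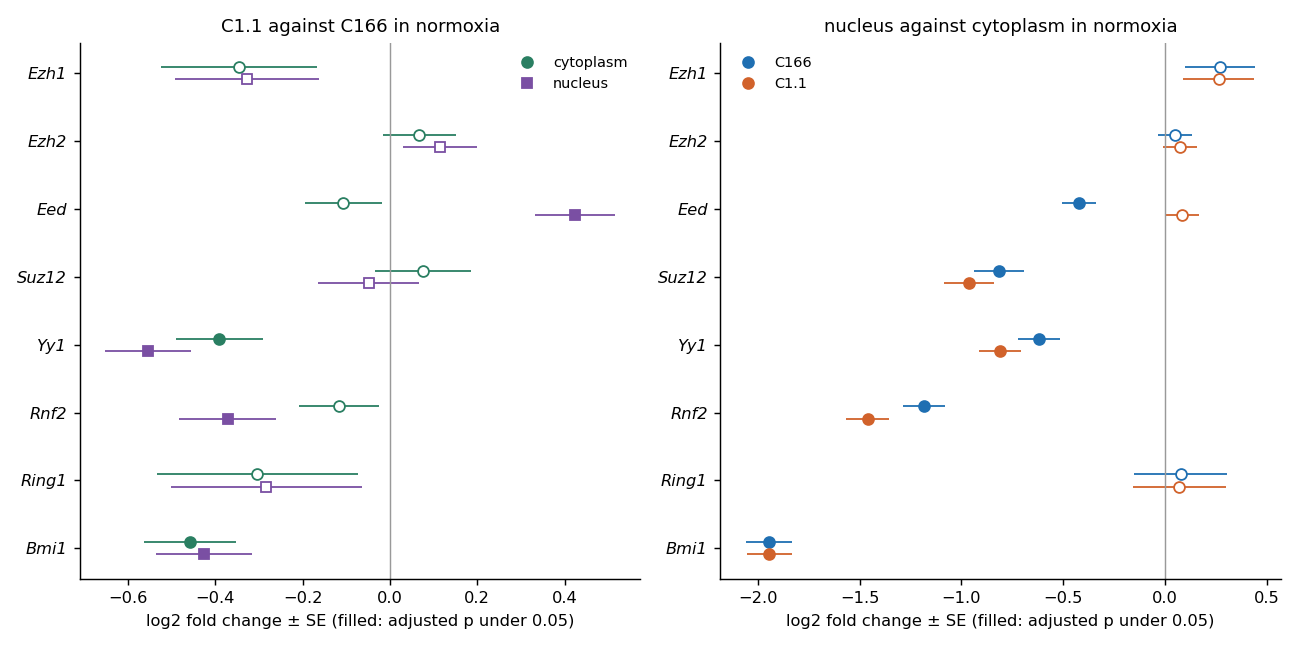
Log2 fold change ± SE of each member in normoxia (horizontal axis, 3 libraries against 3, filled where the adjusted p was under 0.05), on the left C1.1 against C166 in cytoplasm (green circles) and nucleus (purple squares), on the right nucleus against cytoplasm in C166 (blue) and C1.1 (orange). Yy1 and Bmi1 are called lower in C1.1 in both fractions, Eed is called higher in the nucleus, and on the right Bmi1 lies farthest to the left, near -1.95 in both lines.

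The level of each transcript in the nucleus was compared with that in the cytoplasm on the scale of all 36 libraries. A value is relative to the RNA of its own fraction and is not an amount per cell, and in bulk RNA less transcript per cell cannot be told apart from fewer cells with it. In C166 no member was called higher in the nucleus (31.8% of all genes) and 5 were called lower (26.2%). In C1.1 no member was called higher (28.6%) and 4 were called lower (29%). Bmi1 was the most cytoplasmic: on the joint scale C166 had 442, 355 and 321 CPM in cytoplasm and 100, 99.4 and 90.5 CPM in nuclei (-1.95 ± 0.11, adjusted p = 6.39e-17, 3.85-fold lower). C1.1 had 285, 273 and 267 and 67.4, 74.4 and 72.8 CPM (-1.94 ± 0.11, adjusted p = 5.48e-17). Rnf2 followed, at 99.3, 120 and 107 CPM in cytoplasm and 50.7, 46.2 and 46.9 CPM in nuclei of C166 (-1.18 ± 0.10), and with -1.46 ± 0.10 in C1.1. For Suz12 the values were -0.82 ± 0.12 and -0.96 ± 0.12, and for Yy1 -0.62 ± 0.10 and -0.81 ± 0.10. Without normoxic cytoplasm replicate 1, the library that stood apart, the C166 values were -1.81 for Bmi1 and -1.25 for Rnf2. They were -0.96 for Suz12 and -0.66 for Yy1, and each was still called lower.

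Eed differed between the fractions in C166, at 62.7, 66 and 59.7 CPM in cytoplasm and 49.8, 43.9 and 46.9 CPM in nuclei (-0.42 ± 0.08, adjusted p = 5.28e-05). In C1.1 it was at 59.8, 55.3 and 61.9 and 59.7, 63.3 and 64.4 CPM (0.08 ± 0.08, adjusted p = 0.413), where the ranges overlapped. Whether this contrast differs between the lines was not tested on the joint scale. Ezh1, Ezh2 and Ring1 were not called in either line (0.05 ± 0.08 and 0.07 ± 0.08 for Ezh2). The call of Ezh1, Ezh2 and Eed depended on the scaling. The median over all genes was 0.17 in C166 and 0.03 in C1.1 with TMM, 0.29 and 0.24 with RLE, 0.26 and 0.23 with upper-quartile factors and 0.33 and 0.28 with DESeq2. In C1.1, Ezh1 (0.47), Ezh2 (0.28) and Eed (0.29) were called higher in the nucleus with RLE, which are values close to that shifted median for Ezh2 and Eed. Bmi1, Rnf2, Suz12 and Yy1 were called lower under all of these scalings.

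The 24h response in the nucleus was then compared with that in the cytoplasm of the same line. In C1.1, Rnf2 (0.75 ± 0.15, adjusted p = 0.000595, 95% interval 0.46 to 1.03) and Eed (0.38 ± 0.12, adjusted p = 0.0316) had a higher nuclear than cytoplasmic response. For both genes the cytoplasmic level fell, while the nuclear level was 38.8, 40.8 and 35.1 CPM in normoxia and 39.7, 44.2 and 49.3 CPM at 24h for Rnf2, and 62.1, 65.5 and 66.9 and 60.5, 62.2 and 65.8 CPM for Eed. Thus 2 of 8 members were called higher (6.76% of all genes) and none lower (4.29%). In C166 none was called higher (3.25%) or lower (5.17%), with 0.23 ± 0.14 for Rnf2, 0.30 ± 0.12 for Eed and 0.45 ± 0.15, adjusted p = 0.0651 for Bmi1. In C166, 3 member tests had an unadjusted p under 0.05, and DESeq2 called Eed and Bmi1 there. Without normoxic cytoplasm replicate 1, the library that stood apart, the C166 Bmi1 value was 0.30 (adjusted p = 0.253). The Ezh2 value was -0.29 ± 0.12 in C166 and -0.29 ± 0.12 in C1.1, neither called. In C1.1 it passed with RLE (-0.35, adjusted p = 0.038), upper-quartile factors (-0.37, adjusted p = 0.0349) and DESeq2 (-0.35, adjusted p = 0.00866), and it lay between -0.16 and -0.14 without any of 5 single libraries (normoxic cytoplasm replicate 2, 24h cytoplasm replicate 3, normoxic nucleus replicates 1 and 2, and 24h nucleus replicate 1). The Rnf2 call in C1.1 held in every alternative run. The Eed call did not: its adjusted p was 0.082 with RLE, 0.0935 with upper-quartile factors, 0.445 with no filter, and 0.0532 to 0.0976 without any of 4 single libraries (normoxic cytoplasm replicate 3, 24h cytoplasm replicate 2, 24h nucleus replicates 2 and 3).

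The nuclear RNA markers did not move as one in the cytoplasm. The 4 markers (Malat1, Neat1, Kcnq1ot1 and Meg3, 1 of which was at 0 in each C1.1 group) summed to 3856 to 5127 CPM in normoxic and 8725 to 9337 CPM in 24h C166 cytoplasm. In C1.1 cytoplasm they summed to 2926 to 2997 and 4160 to 6910 CPM. In nuclei the sums were 16085 to 29289 CPM over all groups. The higher cytoplasmic sums at 24h came from Malat1 (1.01 on the log2 scale in C166 and 0.75 in C1.1) and Neat1 (1.49 and 1.18). Kcnq1ot1, 3.54 and 3.26 higher in the nucleus than in the cytoplasm of normoxic C166 and C1.1, was at 0.11 ± 0.14 in C166 cytoplasm at 24h (adjusted p = 0.576) and fell in C1.1 cytoplasm (-0.81 ± 0.13, adjusted p = 6.5e-05). Of the members lower in the nucleus than in the cytoplasm in C166, Bmi1, Rnf2 and Eed fell in its cytoplasm at 24h, and Suz12 and Yy1 were not called. In C1.1 those members were Bmi1, Rnf2, Suz12 and Yy1, of which only Rnf2 was called in the cytoplasm at 24h. Eed fell there with no difference between the fractions called. The part of these markers in the members' results was not tested.

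The wider machinery was read from lists of complex subunits and related genes. Over all tested genes at 24h, 18.2% were called higher and 17.5% lower in C166 cytoplasm, and 19.2% and 18.4% in C166 nuclei. In C1.1 the shares were 18% and 18.1% in cytoplasm, and 22.3% and 20.5% in nuclei. The list counts that follow are descriptions to be read beside those shares. Of 9 accessory subunits of complex 2, 3 rose and 2 fell at 24h in C166 cytoplasm, 2 and 3 in C166 nuclei, 2 and 3 in C1.1 cytoplasm, and 1 and 4 in C1.1 nuclei. The medians were -0.16, -0.14, -0.07 and -0.09, where those of all genes were 0.08, 0.00, 0.03 and 0.00. Phf1, a Polycomb-like subunit that guides complex 2 to chromatin, rose in all 4 (0.80, 1.12, 1.24 and 0.95). Jarid2, a DNA-binding cofactor, rose in C166 cytoplasm from 6.06, 8.29 and 7.67 to 17.4, 19.6 and 18 CPM (1.32 ± 0.21), in C166 nuclei (0.53) and in C1.1 cytoplasm (0.99). In C1.1 nuclei the Jarid2 value was 0.13 ± 0.12, not called. Mtf2, another Polycomb-like subunit, fell in the cytoplasm of both lines (-0.44 and -0.65) and in C1.1 nuclei (-0.47).

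Of the 9 CBX and PHC subunits of canonical complex 1, 4 rose and 1 fell in C166 cytoplasm, 2 and 2 in C166 nuclei, 5 and 2 in C1.1 cytoplasm, and 2 and 3 in C1.1 nuclei. The paralogues Phc1 and Phc2, which polymerise the complex, went in opposite directions in all 4. Phc1 rose (1.13, 0.64, 0.85 and 0.36), and Phc2 fell (-0.44, -0.91, -0.72 and -0.88). Of the 5 other PCGF genes, the family to which Bmi1 belongs, 1 rose and 1 fell in the cytoplasm of each line, 2 and 2 in C166 nuclei, and 1 and 2 in C1.1 nuclei. Pcgf5 rose in all 4 (0.97, 0.95, 1.20 and 1.21), and Pcgf6 fell in all 4 (-0.54, -0.44, -0.86 and -0.62). In C166 cytoplasm Pcgf5 went from 37, 50.7 and 48.6 to 82.5, 90.8 and 92.9 CPM, in the comparison in which Bmi1 fell. Of 11 subunits of variant complex 1, 2 rose and 3 fell in C166 cytoplasm, 1 and 5 in C166 nuclei, 1 and 5 in C1.1 cytoplasm, and none and 4 in C1.1 nuclei. Rybp, the variant-complex subunit that binds Rnf2, fell in C166 nuclei (-0.51), C1.1 cytoplasm (-0.74) and C1.1 nuclei (-0.69).

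Around Yy1, the 3 MBT-domain partners included Sfmbt2, a protein that pairs with Yy1 in mammals and whose fly relative pairs with Pho. Sfmbt2 rose in all 4 (1.30, 0.69, 1.32 and 0.91), and Sfmbt1 and Mbtd1 fell in the nuclei of both lines. Of 13 INO80 complex genes, 3 rose and 3 fell in C166 cytoplasm, 1 and 5 in C166 nuclei, 1 and 6 in C1.1 cytoplasm, and 1 and 7 in C1.1 nuclei. The helicase Ruvbl1 fell in all 4 (-0.78, -0.62, -1.16 and -0.66). Of 8 tested genes of the deubiquitinase that removes the complex 1 mark, 4 rose and none fell in C166 cytoplasm, 4 and 1 in C1.1 cytoplasm, none and 2 in C166 nuclei, and none and 5 in C1.1 nuclei. Of 9 Polycomb antagonists, 7 rose and none fell in C166 cytoplasm and 5 and 1 in C1.1 cytoplasm, whereas 2 rose and 5 fell in C166 nuclei and 1 and 5 in C1.1 nuclei. Kdm6b, the demethylase of lysine 27 of histone H3, rose in cytoplasm (1.22 in C166 and 1.85 in C1.1) and in C166 nuclei (0.43). These antagonists were more abundant in the nucleus than in the cytoplasm in normoxia. In C166 8 of 9 were called, where 31.8% of all genes were called higher, and in C1.1 9 of 9, against 28.6%. The summed nuclear RNA markers were higher in the 24h cytoplasmic libraries as well. Their part in these counts was not tested.

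Proliferation genes of the E2F programme were read beside Ezh2. Of 17, 2 rose and 6 fell in C166 cytoplasm, 1 and 10 in C166 nuclei, none and 13 in C1.1 cytoplasm, and none and 11 in C1.1 nuclei. The medians were -0.10, -0.28, -0.50 and -0.38. Rrm2, the ribonucleotide reductase subunit made in S phase, fell in all 4 (-0.72, -0.81, -1.09 and -0.99). Ezh2 was called lower in the 2 nuclear comparisons and was at -0.20 in both cytoplasmic ones. All 5 hypoxia control genes rose in each of the 4 comparisons, with medians of 3.98 to 4.39.

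Between the lines in normoxia, other subunits differed by more than any of the 8 members. Cbx7, a chromodomain reader of complex 1, was at 9.43, 11.3 and 13 CPM in C166 cytoplasm and had 0 counts in all 3 libraries of C1.1 cytoplasm, which is at least 105-fold lower against a floor of 3 counts per library. In nuclei it was at 15.6, 16.4 and 16.1 CPM in C166 and had 1 count in the 3 libraries of C1.1 together. Auts2, a subunit of a variant complex 1 that activates transcription, was at 0, 0.300 and 0.343 CPM in C166 cytoplasm and 7.97, 7.01 and 8.45 CPM in C1.1 (5.14 ± 0.52), and at 0.651, 0.458 and 0.595 and 13.4, 13.3 and 13.2 CPM in nuclei (4.54 ± 0.33). Pcgf5 was lower in C1.1 (-1.03 in cytoplasm and -1.37 in nuclei), as was Phf19 (-1.28 and -1.03). Phc1 was higher (1.12 and 0.95). Over all genes, 18.2% were called higher and 17.3% lower in C1.1 in cytoplasm, and 18.8% and 21.2% in nuclei. Of the accessory subunits of complex 2, 2 of 9 were higher and 1 lower in cytoplasm, and 2 and 2 in nuclei. Of the CBX and PHC genes, 2 of 9 were higher and 1 lower in cytoplasm, and 1 and 1 in nuclei. Of the INO80 genes, 5 of 13 were higher and none lower in cytoplasm, and 5 and 2 in nuclei.

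Over the 12 group means of log2 CPM, Suz12, Rnf2 and Bmi1 followed mainly the fraction, and Ezh1 and Ezh2 mainly the time of hypoxia. Yy1 followed the fraction and also the line. For Eed the lines differed in the nucleus, with joint-scale means of 46.9 CPM in normoxic C166 and 62.5 CPM in normoxic C1.1. Suz12, Yy1, Rnf2 and Bmi1 correlated with each other at r = 0.77 to 0.99, and Ezh1 with Ezh2 at r = -0.92. These are descriptions over 12 means that share libraries and scaling. The genes most like each member were ranked by r over the same 12 means among 8053 genes (8054 for Ring1) above the median level. For Ezh2 they were E2f3 (r = 0.956), a transcription factor of the E2F family, and Eml4 (0.934). In C166 nuclei E2f3 was at 60.7, 60.5 and 58.9 CPM in normoxia and 33.9, 32.1 and 33.1 CPM at 24h. Other E2F genes differed in that comparison: E2f1 (log2 fold change 0.30) and E2f2 (0.53) were not called, and E2f6 was called lower (-0.41). For Ezh1 they were Cast (0.959), the calpain inhibitor, and Sec23a (0.952), a coat protein of secretory vesicles. For Eed they were Srsf10 (0.880) and Ergic2 (0.873), and for Ring1 Rab11fip2 (0.867) and Sesn2 (0.859). For members dominated by the difference between fractions the values were higher: Timm17b and Ngfrap1 for Suz12 (both 0.990), Atp5f1 (0.990) and Rab3ip (0.986) for Yy1, Skp1a (0.995) and Ttc1 (0.994) for Rnf2, and Nudt19 and Ppp2r5c (both 0.997) for Bmi1. Over the cytoplasmic groups alone r was 0.538 and 0.713 for the Suz12 pairs. It was 0.951 to 0.993 for those of Yy1, Rnf2 and Bmi1.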

How the data were processed

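The deposited table holds raw counts per gene symbol with no normalization, made by the authors from stranded, ribosomal RNA-depleted libraries. The submitters' processing notes name Bowtie2 2.2.2, TopHat2 2.0.11, Cufflinks 2.2.1, featureCounts, edgeR, Cuffdiff and the build GRCm38, and which tool counted, and with which strand setting, is not given in the sources used here. The table also holds the authors' normalized values, fold changes and p-values, which were not used.

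Tests were run with edgeR 4.0.16 (limma 3.58.1, R 4.3.3), with DESeq2 1.42.0 as an alternative. The 18 libraries of a fraction shared one fit, and all 36 a joint one. Genes were kept with filterByExpr (14998 in cytoplasm, 15735 in nucleus, 16682 jointly), scaled with TMM and tested with edgeR's quasi-likelihood test and Benjamini-Hochberg adjustment over all of them. The SE is the absolute log2 fold change divided by the root of F. Group means carry SDs with n = 3. Common biological variation was 0.213 in cytoplasm and 0.135 in nucleus, and the method was tested on simulated data.

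The members and lists were chosen with earlier results of these data known. All 8 members are named in every comparison, of each list up to 3 called genes per direction with the largest change in a comparison, and for likeness the 2 genes with the highest r whose symbols are not those of predicted genes. Values of a gene in other comparisons are given beside these. Alternatives were other scalings, no filter, DESeq2, the replicate block, only the libraries compared, and each library left out.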

Additional observations from a re-analysis of the deposited data

Results flagged for a closer look

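In C1.1 the 24h responses of Rnf2 and Eed differed between the fractions by the test of that difference. The nuclear response minus the cytoplasmic response was 0.75 on the log2 scale for Rnf2 (adjusted p = 5.95e-04) and 0.38 for Eed (adjusted p = 0.0316). The Rnf2 call held in every alternative run, whereas the Eed call was lost with RLE (adjusted p = 0.082), upper-quartile factors (0.0935), no filter (0.445) and without any of 4 single libraries (0.0532 to 0.0976). Both genes fell in the cytoplasm at 24h, in 3 of 3 libraries below all normoxic ones, and neither was called in the nucleus. The summed nuclear RNA markers were at 2926 to 2997 CPM in normoxic and 4160 to 6910 CPM in 24h C1.1 cytoplasm, where Malat1 and Neat1 rose and Kcnq1ot1 fell, and their part in the result was not tested.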

How the results depend on the processing

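No value that passed the threshold changed sign under any alternative run. The count of members called moved past 1.5 times in the comparisons that follow. In C166 cytoplasm at 24h it was 4, and 2 (Rnf2 and Bmi1) with only the libraries compared. For nucleus against cytoplasm in normoxic C1.1 it was 4, and 7 with RLE factors, 7 with upper-quartile factors and 7 with DESeq2. For the nuclear minus cytoplasmic 24h response it was 0 in C166, 1 with upper-quartile factors and 2 with DESeq2, and 2 in C1.1, 1 with no filter. With single libraries left out, that count was 0 to 1 in C166 (Bmi1 without normoxic cytoplasm replicate 3 or nuclear 24h replicate 3) and 1 to 3 in C1.1, where Bmi1 was also called without 24h nuclear replicate 1 (0.50, adjusted p = 0.0352).

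Replicate numbers gave little sign of pairing the libraries. Deviations of same-numbered libraries correlated at -0.0747 to 0.083 within cytoplasm and -0.133 to 0.0969 within nucleus. Between the fractions they correlated at -0.048 to 0.229, over 0.1 in 1 of 18 pairs. The median there was 0.0232, and -0.0122 for other numbers. Such correlations cannot show whether same-numbered cytoplasmic and nuclear libraries came from the same culture. With the replicate block, the C1.1 nuclear minus cytoplasmic count was 1 (Eed 0.38, adjusted p = 0.0692), and Suz12 passed in C166 cytoplasm at 24h (0.26, adjusted p = 0.0311). The block changed no other call.

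Counts over all genes at 2h changed most: from 201 in C166 cytoplasm to 560 with no filter, 490 with DESeq2 and 26 with only the libraries compared, from 292 in C1.1 cytoplasm to 648, 781 and 1385, from 362 in C166 nuclei to 555 with DESeq2 and 699 with only the libraries compared, and from 517 in C1.1 nuclei to 795 with DESeq2. With only the libraries compared, C166 cytoplasm at 24h went from 5362 to 3132, the normoxic lines in cytoplasm from 5326 to 3306, and the nuclear minus cytoplasmic response from 1405 to 330 in C166 and from 1843 to 2934 in C1.1. The difference of the lines' responses in cytoplasm went from 350 to 710 with no filter, 829 with DESeq2 and 144 with only the libraries compared. The share of called genes that were higher went from 61.2% to 48.5% (RLE), 46.1% (upper-quartile), 50.6% (no filter) and 47.4% (DESeq2) for the response by fraction in C1.1, from 38.6% to 53.0% in C166 with only the libraries compared, from 47.0% to 58.6% for the normoxic lines in nuclei and from 60.7% to 41.8% for the difference of their nuclear responses (both upper-quartile), and from 49.7% to 59.8% (DESeq2) for nucleus against cytoplasm in C1.1. At 2h it went from 55.8% to 45.5% (no filter) in C1.1 cytoplasm and from 68.2% to 88.5% (only the libraries compared) in C166 cytoplasm. The causes were not tested. Ring1 and Ezh1 were the members with the fewest counts and the widest intervals, and the part of depth in this was not tested.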

Other observations

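Of 9 genes that oppose Polycomb repression, 3 were called higher in normoxic C1.1 than in C166 and none lower in each fraction, where 18.2% of all genes in cytoplasm and 18.8% in nuclei were called higher: Kmt2a, a histone H3 lysine 4 methyltransferase (1.06 in cytoplasm and 0.81 in nuclei on the log2 scale), Smarca4, the ATPase of the BAF remodeller (0.76 and 0.52), and Kmt2c (0.34 and 0.26). The other 6 were not called and lay on both sides of 0 (Kdm6b at -0.45 and -0.09). The medians of the list were 0.30 and 0.08, where those of all genes were 0.06 and 0.02. Cbx7, with 0 counts in normoxic C1.1 cytoplasm, had 6, 0 and 5 counts in its libraries at 24h, where C166 was at 17.5, 19.6 and 20.7 CPM.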
